A study of Mus musculus with 8 samples.

Results

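The genes described here are the annotated microRNA genes that received reads in small RNA libraries of mouse heart. They were selected on their level: every feature of gene type miRNA whose normalized read count, averaged over the 8 libraries, was above 0, leaving out features named as small nucleolar RNAs. Of 2207 features of type miRNA among the 54531 features of the table, 97 met this rule, which is 4.4%. A further 2109 had a mean of 0, and 1 was left out by its name. That feature, Snord43 (chr15:80082847-80082954), carries the gene type miRNA but the name of a box C/D small nucleolar RNA, and its mean of 40246.2 normalized reads was 4.89% of the sum over all features.

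The study compared *Rnaseh1* knockout (RNase H1-/-) hearts, 4 libraries, with wild type (RNase H1+/+) hearts, 4 libraries, all from C57BL/6 mice of 24 weeks. RNase H1 removes RNA from RNA:DNA hybrids. In the knockout, Cre recombinase driven by the muscle creatine kinase promoter acts on loxP-flanked *Rnaseh1* in heart and skeletal muscle, so other cell types of the heart are not targeted. The study elsewhere names its heart controls L/L, with loxP alleles and without Cre, whereas the labels call the controls of these libraries wild type. The sources also differ on the RNA: the labels give small RNA of heart tissue, and the methods give RNA of isolated heart mitochondria. The names of the columns per library start with mtRNA.

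MicroRNAs are short RNAs that lower the translation and stability of messenger RNAs. They are cut from a hairpin in a longer transcript by Drosha in the nucleus and by Dicer in the cytoplasm. The mature strand is then loaded into an Argonaute protein and pairs with its targets mainly through bases 2 to 8, the seed. Heart muscle is known for a small set of abundant microRNAs, among them miR-1, miR-133a, miR-208a and miR-499, several of which lie in introns of myosin genes or in transcripts specific to muscle. Mature microRNAs act mostly in the cytoplasm and their genes are nuclear.

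All levels are the authors' mean of the normalized read count over the 8 libraries, which pools both genotypes. The columns per library carry no label of a genotype or an animal and were not used, so no genotypes are compared, and no SD, n or p belongs to any of these levels. *Rnaseh1* itself was listed at a mean of 0, so these small RNA reads do not check the labels. The features of type snoRNA held 73.3% of the sum of means over the table, and the 97 microRNA genes held 0.466%, which is 3833.7 of 822885 normalized reads.

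The 8 highest levels were those of Mir6236, described below, and of genes whose sequences repeat elsewhere in the genome or lie inside other small RNA genes. The first set is a group of 6 predicted genes with no RefSeq microRNA sequence, of 56 or 57 bases. Their sequences are shown because they tell which levels can be assigned to 1 gene, and are those of the GENCODE M21 annotation of GRCm38, 5′ to 3′ on the strand of the gene. Capitals mark bases that differ from Gm23935 after alignment.
Gm23935 (chr16:11144125-11144181, plus strand): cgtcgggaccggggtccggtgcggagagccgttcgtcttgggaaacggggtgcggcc
Gm24270 (chr9:56223715-56223771, minus strand): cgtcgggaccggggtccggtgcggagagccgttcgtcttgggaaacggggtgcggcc
Gm24245 (chr4:139338304-139338360, plus strand): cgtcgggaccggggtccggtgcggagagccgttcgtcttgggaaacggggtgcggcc
Gm24187 (chr13:9834469-9834525, minus strand): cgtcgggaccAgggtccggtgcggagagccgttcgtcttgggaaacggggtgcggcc
Gm25911 (chr1:167340369-167340424, minus strand): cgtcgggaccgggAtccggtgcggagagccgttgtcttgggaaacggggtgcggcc
Gm24270 lies in an intron of *Peak1*, and the other 4 printed genes lie outside longer genes on their strand.

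Gm23935, Gm24270 and Gm24245 have the same 57 bases and differed in level. Gm23935 had a mean of 716.6 normalized reads, Gm24270 had 368.4 and Gm24245 had 34.66. Reads that lie wholly within these 57 bases match all 3 places equally, and the aligner's default reports 1 place for such a read. How the reads were divided among the 3 genes was not tested, and their levels are therefore uncertain one by one. Gm24187, with 1 substitution, had a mean of 248.4, and Gm25911, with 1 substitution and 1 missing base, had 56.58. Gm24187 shares 27 of its 38 runs of 20 bases with each of the 3 identical genes, and Gm25911 shares 4 of its 37. Reads that miss the differing bases match these places equally, so both levels are uncertain too. The sixth gene, Gm23388 in an intron of *Zfp791*, differs by 4 substitutions and had a mean of 0.2565, from 2 reads. The 6 genes summed to 1425 normalized reads, 37.17% of the sum over the 97 genes. No annotated function is given for them in the files, and their match to ribosomal RNA was not analysed here.

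The second set consists of 3 predicted genes that share sequence with 7SL RNA. 7SL is the RNA of the signal recognition particle, which directs ribosomes to the endoplasmic reticulum. Gm47295 shares 77 of its 79 bases of genome with Rn7s1, a 7SL RNA gene of 300 bases, and Gm47299 shares 77 of its 80 bases with Rn7s2, of the same length.

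Gm47295 had a mean of 720.7 normalized reads and Gm47299 had 708.3. Over their lengths these were 912.2 and 885.4 normalized reads per 100 bases. Rn7s1 had 119.4 and Rn7s2 had 115.4 normalized reads per 100 bases, from means of 358.2 and 346.1. Each microRNA feature, at the 3′ end of its 7SL gene, thus had the higher value per 100 bases. The bases they share belong to both features, so these values depend on how reads were assigned and do not give coverage. The third gene, Gm24105, shares 39 of its 59 runs of 20 bases with each of Rn7s1 and Rn7s2. It had a mean of 2.072, from 15 reads in 6 libraries. Of its bases, 76 lie in a misc_RNA feature of the same name with a mean of 0.5674. The options given for counting name the strand and none for genes that overlap, so the share of reads given to each member of such a pair is uncertain. Gm47295 also shares all 60 of its runs of 20 bases with Gm47299, and each shares 58 with both Rn7s1 and Rn7s2. Reads within these runs match both places equally, so the levels of Gm47295 and Gm47299 are uncertain one by one. The 3 genes summed to 1431 normalized reads, 37.33% of the sum over the 97 genes.

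The highest single gene was Mir6236, on chromosome 9 outside longer genes, with a mean of 881.8. It shares 3 of its 104 runs of 20 bases with *Wdfy2* and fewer with some other genes. Its match to ribosomal RNA was not analysed here. Per 100 bases Mir6236 stood at 716.9 normalized reads and ranked 4, behind Gm23935 at 1257 and the 7SL pair. The read total behind its mean was between 4574 and 13841, depending on which libraries the reads came from. Mir6236 alone held 23% of the sum over the 97 genes. Together with the 57-base group and the 7SL group, 10 genes held 3737.8 normalized reads, 97.5% of that sum, and the other 87 genes held 96.0, or 2.5%.

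**Figure D1:**
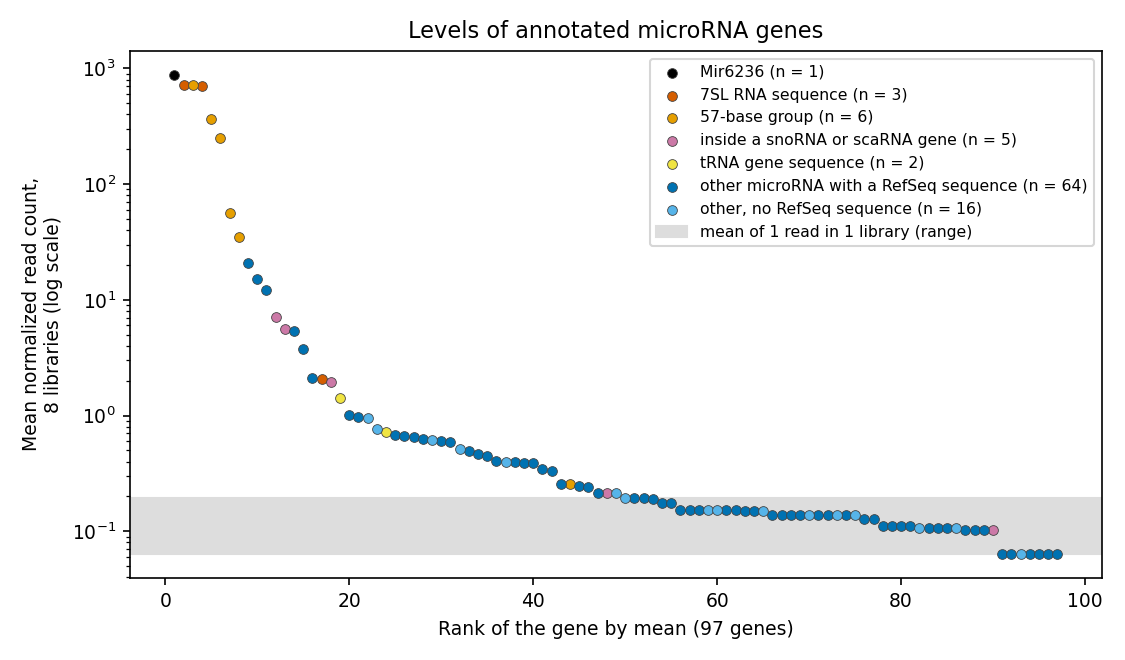
Mean normalized read count over 8 libraries (log scale) of each of the 97 annotated microRNA genes against its rank, with points coloured by the kind of gene and a grey band for the value of 1 read in 1 library (0.0637 to 0.193). The 8 highest genes, down to Gm24245 at 34.66, are Mir6236 and members of the 7SL and 57-base groups, and 43 genes rest on 1 read.

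**Figure D2:**
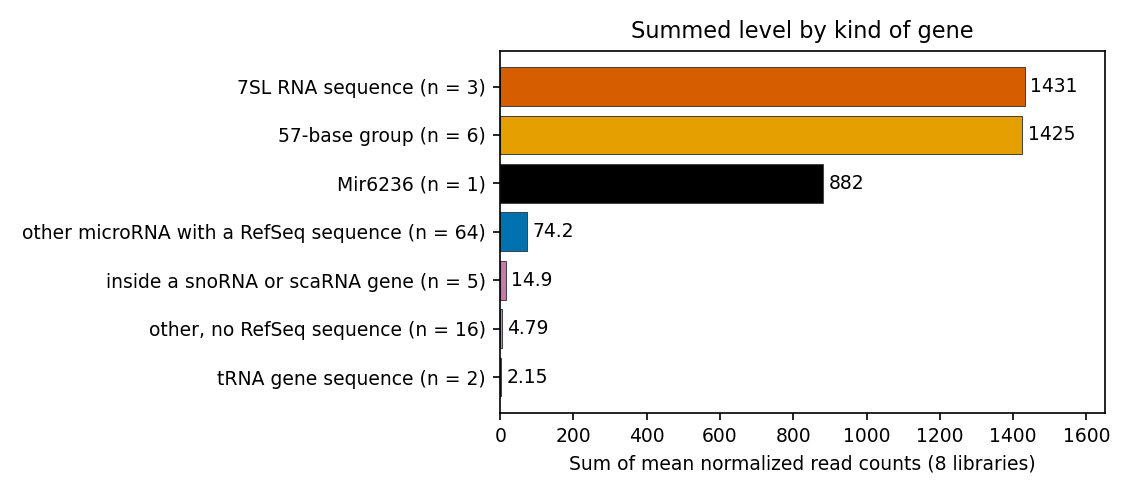
Summed mean normalized read counts over 8 libraries for each kind of gene, with the number of genes in parentheses. The bars for the 7SL sequence, the 57-base group and Mir6236 reach 1431, 1425 and 882, against 74.2 for the 64 other microRNAs with a RefSeq sequence.

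A further 5 genes lie inside or across small nucleolar or Cajal body RNA genes, which guide the modification of ribosomal and spliceosomal RNA. They summed to 14.86 normalized reads. Mir677 (chr10:128085286-128085363), in an intron of *Atp5b*, which codes for the beta subunit of ATP synthase, had a mean of 7.043, and the snoRNA feature of the same name, 72 bases inside it, was listed at 0. Mir1843b (chr1:159340358-159340423) had a mean of 5.562 and shares 65 of its 66 bases with Scarna3a, a Cajal body RNA gene with a mean of 1.062. Per 100 bases these were 8.428 for Mir1843b and 0.7589 for Scarna3a. As in the 7SL pairs, the share of reads given to each overlapping gene is uncertain. These values, and the 0 of the snoRNA feature Mir677, therefore do not compare coverage. Mir3535 had a mean of 1.932 from 14 reads in 5 libraries, and it overlaps an exon of *Ncl*, the nucleolin gene. Gm47284 and Mir3068 rested on 2 reads and 1 read. The miRNA feature Mir3068 had a mean of 0.1028, against 1.217 for a snoRNA feature of the same name that overlaps it. A separate snoRNA-type feature named Mir3096 had a mean of 829.6 and falls outside the rule by its gene type.

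A pair of members carries a transfer RNA sequence. Gm44456 (chr13:21924928-21925016) had a mean of 1.43 from 9 reads in 5 libraries. The feature n-TStga1 (chr13:23518142-23518250), named as a transfer RNA gene, had a mean of 0.7179 from 5 reads in 2 libraries. They share 63 runs of 20 bases, so a read could match both.

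The remaining 80 genes include 64 with a RefSeq microRNA sequence and no other small RNA gene across them. These 64 summed to 74.2 normalized reads, which is 0.00901% of the sum over the table, and had a median of 0.163. The first 3 of them, Mir5099, Mir27a and Mir24-2, held 47.9 of that sum, or 64.6%. The mature strands of the clusters and seed groups described next are given with their seeds in capitals, from RefSeq on GRCm38.p6, including strands of genes with 1 or 2 reads, so that neighbours and relatives can be compared.
mmu-miR-27a-3p: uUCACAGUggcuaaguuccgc
mmu-miR-24-3p: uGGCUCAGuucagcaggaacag
mmu-miR-23a-3p: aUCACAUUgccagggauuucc
mmu-miR-99b-5p: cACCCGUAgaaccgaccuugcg
mmu-miR-99a-5p: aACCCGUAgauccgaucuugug
mmu-miR-16-5p: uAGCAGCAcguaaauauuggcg
mmu-miR-15a-5p: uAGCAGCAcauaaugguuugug
mmu-miR-497a-5p: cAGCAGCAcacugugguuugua

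Mir5099 (chr12:36816205-36816278), outside longer genes, was the highest of the 64, with a mean of 20.7 from 107 to 325 reads. Mir27a (chr8:84208672-84208758) and Mir24-2 (chr8:84208815-84208921) followed, with means of 15.04 (77 to 237 reads) and 12.2 (63 to 192 reads). They belong to the miR-23a, miR-27a and miR-24-2 cluster, known in heart muscle for its part in hypertrophic growth, and its 3 hairpins are transcribed together. Mir23a (chr8:84208518-84208592), 79 bases upstream of Mir27a, had a mean of 0.0637, which is 1 read. Per 100 bases the 3 genes stood at 0.08495 for Mir23a, 17.28 for Mir27a and 11.4 for Mir24-2. These values differed widely between neighbours in 1 transcript, and whether they reflect coverage of that transcript was not tested. Mir24-2 also overlaps an exon of the noncoding gene Gm26532. The second copies of these hairpins, Mir27b and Mir24-1, were listed at 0, and Mir23b had a mean of 0.1752 from 2 reads. Mir24-2 and Mir24-1 share 9 runs of 20 bases, so a read of the mature strand can match both copies and be placed at either. Mir27a and Mir27b share 1 such run, so only a read within that run matches both equally. The protein-coding gene *2010111I01Rik*, with a mean of 1.886, shares 11 runs with Mir24-2 and 1 with Mir27a, so such reads can match it too. Levels and zeros of single copies are uncertain to that extent.

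Mir99b (chr17:17830188-17830257), in an intron of *Spaca6*, had a mean of 5.322. Its neighbours in the same cluster, Mirlet7e at a distance of 94 bases and Mir125a at 554 bases, were listed at 0. Mir99a, which shares the seed ACCCGUA with Mir99b, had a mean of 0.98 from 9 reads in 5 libraries. Mir99a lies in an intron of its host transcript Mir99ahg, close to Mirlet7c-1 with 5 reads (mean 0.393), and Mir125b-2 with 4 reads (mean 0.5996) is hosted by the same transcript. Members of 2 paralogous clusters were therefore read, but from the *Spaca6* cluster the miR-99 hairpin alone.

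Mir16-1 (chr14:61631880-61631972) overlaps an exon of *Dleu2*, a noncoding host transcript, and had a mean of 3.734. Mir15a, 54 bases away in a *Dleu2* intron, had 0.2581 from 2 reads. Per 100 bases these were 4.015 for Mir16-1 and 0.3073 for Mir15a. Mir16-1 shares 4 runs of 20 bases with Mir16-2, listed at 0, so the split between these copies is uncertain. The miR-15 and miR-16 family is known to restrain the cell cycle, and Mir497, the third member with the seed AGCAGCA, had a mean of 0.3309 from 2 reads.

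Among the genes with a RefSeq mature sequence, 10 seeds were shared by at least 2 genes. They covered 15 genes, which form 6 groups when both arms are joined. Both arms of Mir99a and Mir99b shared a seed, for a summed level of 6.3, and the AGCAGCA group summed to 4.32. The miR-30 group with the seed GUAAACA, abundant in heart muscle, held Mir30a (mean 1.01, 8 reads in 6 libraries), Mir30c-1 (0.6853, 5 reads) and Mir30e (0.1487, 1 read), 1.84 in all. Mir30b (0.1928, 1 read) and Mir1a-2 had no matched RefSeq sequence, so neither is in any of these groups. The CCCUGAG group of Mir351 and Mir125b-2 summed to 1.25. The let-7 group with GAGGUAG, known to promote differentiation, summed to 0.889 over Mirlet7c-1, Mirlet7a-1 and Mirlet7f-1. Mirlet7a-2 (0.1381, 1 read) was matched by its 3′ strand alone and is not in that sum, and Mir23b was matched by its 5′ strand alone, so these groups cover the matched strands and not every relative. Mirlet7a-1 and Mirlet7f-1 lie in exons of the noncoding gene 6720427I07Rik, which had a mean of 1.384. Mirlet7a-1 shares 7 runs of 20 bases with Mirlet7c-2, listed at 0, and Mirlet7c-1 shares 4. The let-7 levels are therefore uncertain gene by gene. Mir107 and Mir103-2, hosted by the pantothenate kinase genes *Pank1* and *Pank2*, shared the seeds of both arms and summed to 0.486. The 30a and 30e genes also shared UUUCAGU in their 3′ arms (1.16), and the 3′ arms of Mirlet7a-1 and Mirlet7f-1 shared UAUACAA (0.496).

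Heart muscle microRNAs were among the members, at low levels. Of 11 genes listed for cardiomyocytes, 5 had a mean above 0, and they summed to 4.67. The list is not limited to genes particular to heart, so 5 of 11 is no measure of missing heart microRNAs. Mir1a-1 (chr2:180389048-180389124), which encodes the muscle microRNA miR-1, had a mean of 2.113 from 17 reads in 5 libraries. Mir1a-2, a second gene for miR-1, had 0.3983 from 3 reads. Mir133a-2 (chr2:180398379-180398482), 9254 bases from Mir1a-1 and transcribed with it, had 0.6132 from 5 reads in 3 libraries. Mir1a-1 and Mir1a-2 share 9 runs of 20 bases and Mir133a-2 and Mir133a-1 share 17, so the split between copies is uncertain here too. Mir486 (chr8:23142555-23142682), in an intron of *Ank1*, had 0.9526 from 9 reads in 4 libraries. Its microRNA is found in muscle and also in red blood cells. Mir499 (chr2:155622880-155622958), in an intron of *Myh7b*, had 0.5898 from 5 reads in 3 libraries.

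The defining cardiac gene Mir208a was listed at 0, as were Mir208b, Mir133a-1, Mir133b, Mir1b and Mir206. Mir208a lies in an intron of *Myh6* and Mir208b in an intron of *Myh7*, the alpha and beta heavy chains of cardiac myosin. These hosts had means of 662.2 and 109.5 in the same table, so cardiomyocyte transcripts were in the libraries. A mean of 0 is a count of 0 reads, and such a count allows an expected total of up to 3 reads (95% limit), or at most 0.578 normalized reads. The absence of these microRNAs cannot be inferred at this depth. The hosts of the muscle microRNAs that were read stood at 4.432 for *Ank1* and 0.5067 for *Myh7b*. Means of hosts and hairpins are per gene and not per length, and were not compared.

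Genes that mark other cell types of the heart were at or close to 0. The endothelial pair Mir126a and Mir126b, and the erythroid genes Mir451a, Mir451b and Mir144, were all listed at 0. Of 3 smooth muscle and pericyte genes, Mir143 had 0.2144 from 2 reads. Of 8 fibroblast genes, Mir29a, known to repress collagen genes, had 0.448 from 3 reads, and Mir21a was listed at 0. Of 6 leukocyte genes listed, 4 were matched among the features of type miRNA. Of these 4, Mir142 had 0.462 from 4 reads and Mir150 had 0.2447 from 2 reads, for a sum of 0.707. A feature named Mir146 was listed at 0 and was not matched to the listed Mir146a. The hepatocyte gene Mir122 and all 6 neuronal genes (Mir124a and Mir9 copies) were listed at 0. The cardiomyocyte list was the highest in sum, but 4.67 normalized reads rest on 39 reads, and no list was tested against another.

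**Figure D3:**
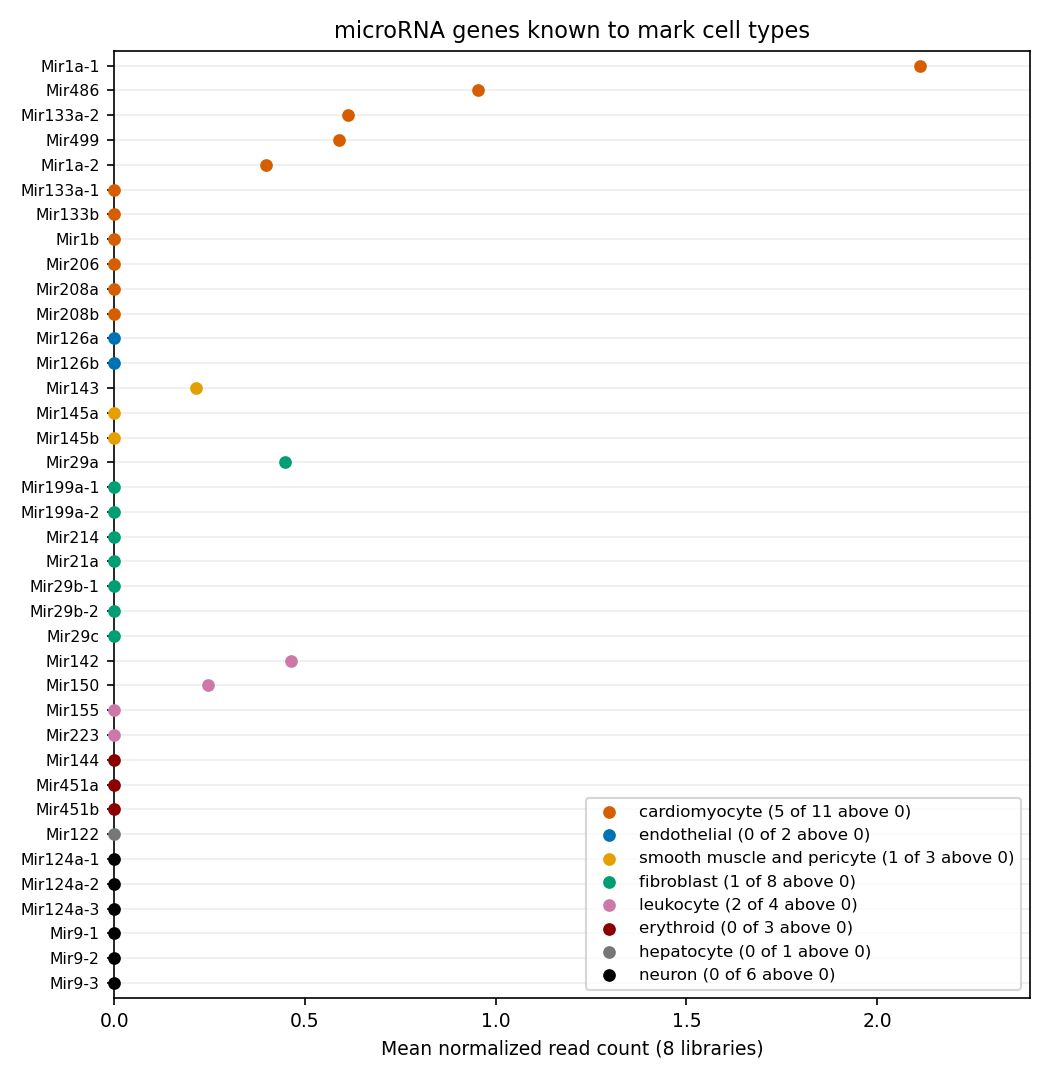
Mean normalized read count over 8 libraries of 38 microRNA genes listed as markers of cell types, coloured by cell type. Mir1a-1 at 2.113 is the highest, and 5 of 11 genes listed for cardiomyocytes are above 0. The endothelial, erythroid, hepatocyte and neuronal genes lie at 0.

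Most of the 97 genes were seen through very few reads. The lowest means in the table are whole multiples of 8 values between 0.0637 and 0.193, which are what 1 read in each of the 8 libraries adds to the mean. The read totals of 82 genes could be recovered from them. Exactly 1 read lay behind 43 genes (44.3%), 2 reads behind 13, 3 reads behind 5 and 4 reads behind 6. Reads in 1 library alone made up the level of 47 genes, and 66 genes were below 0.578, the upper limit on the expected level of a gene with 0 reads. Just above the threshold stood 7 genes at 0.0637, 1 read each: Mir130a, Mir23a, Mir151, Mir146b, Mir877, Mir5123 and Mir6899. Just below it stood the 2109 features at 0, so 1 read parts members from the rest at this boundary.

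**Figure D4:**
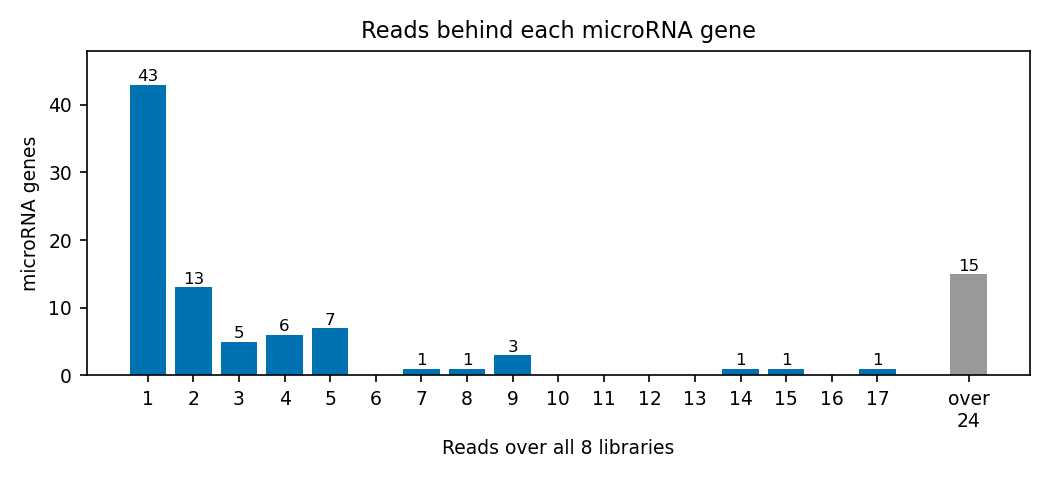
Number of microRNA genes by their read total over all 8 libraries. The grey bar, labelled as over 24, holds the 15 genes whose total was not solved. Among them Mir16-1 had a range of 19 to 59 reads, so a total above 24 is not certain for it. The bar at 1 read holds 43 genes and no bar from 2 to 17 reads exceeds 13.

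The level fell steeply along the ranking. The median of the 97 means was 0.214, 20 genes reached a mean of 1, 11 reached 10 and 6 reached 100. The 6 highest, Mir6236, Gm47295, Gm23935, Gm47299, Gm24270 and Gm24187, held 95.1% of the sum. From the large imprinted microRNA cluster on chromosome 12, Mir341, Mir431, Mir495 and Mir540 had 1 read each. Mir378a, in an intron of *Ppargc1b*, a coactivator of mitochondrial genes, had 0.5133 from 4 reads, and Mir33, in the sterol regulator gene *Srebf2*, had 0.1381 from 1 read. These 6 genes were picked after their values had been seen.

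In position, 50 of the 97 genes lie in introns of longer genes on their strand, 10 in exons, 8 inside or across other small RNA genes and 29 outside. The 29 outside summed to 1983.0 normalized reads, the 8 across small RNA genes to 1445.9, the 50 in introns to 387.0 and the 10 in exons to 18.1. Of the members, 8.25% lie on an exon of another class of small RNA gene, against 1.38% of the 2109 miRNA features at 0. RefSeq microRNA sequences were found for 70.1% of the members, against 45.8% of the features at 0. Predicted genes with a Gm name made up 18.6% of the members, against 47.6% of the features at 0, yet those 18 genes held 74.58% of the summed level. These shares are descriptions, since the level chose the members.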

How the data were processed

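Small RNA was sequenced from 8 mouse hearts, 4 *Rnaseh1* knockout and 4 wild type per the labels. The submitters' notes and methods name Bowtie2 2.3.4.1 on mm10 with defaults, featureCounts 1.6.3 in stranded mode on Ensembl genes of GRCm38 with added mitochondrial features, and DESeq2 1.18.1 under R 3.5.1. The deposited mean per gene is a signal, in which the authors divided each library's counts by its size factor and averaged the 8 libraries. It alone was used. The authors' comparison columns (log2 fold change, standard error, test statistic, p-value, adjusted p-value) were not used. A second sheet holds 8 columns per library whose names, starting with mtRNA, match no sample title. They were not read, and the mean that chose the members was taken from the authors' mean, which averages such columns by definition. Tests between genotypes were thus not run, and depth per library is not analysed here. The 23 rows repeated at the end of the table were counted once.

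Read totals up to 24 were recovered by solving each mean as a sum of the 8 values of 1 read (tolerance 1e-12). All 7894 features with a mean under 0.5 were solved with at most 8 reads, and the solver was tested on simulated data. Ranges of reads divide a mean by the largest and the smallest of these values. Reads and limits cover counting error only, since PCR copies were not separated. All 97 genes had the same start and end in GENCODE M21, and 68 matched RefSeq microRNA sequences by symbol. Genes sharing any run of 20 bases with Gm23935 form the 57-base group, and 50% of runs shared with Rn7s1 or Rn7s2, or with a transfer RNA gene, placed a gene in the 7SL or transfer RNA group. Named genes were the 20 highest, cell type markers above 0, and neighbours within 10000 bases on the same strand, and others were named after their values were seen. Some sequences are not reported here. The members and lists were chosen with earlier results of these data known. Python 3.11.15, pandas 2.3.3, Biopython 1.88 and matplotlib 3.10.9 were used.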

Additional observations from a re-analysis of the deposited data

How the results depend on the processing

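The number of microRNA genes depended on the minimum mean: 97 above 0 became 20 at a mean of at least 1, 11 at 10 and 6 at 100. The median level moved with it, to 13.6, 248 and 712 normalized reads, against 0.214 for all 97, because fewer genes are kept. Their share of the summed level, 0.466%, was 0.463% at a minimum of 1, 0.46% at 10 and 0.443% at 100. Without the genes that lie within 100 bases of another small RNA gene, 81 genes remained with a median of 0.175, and the share fell to 0.282%. Grouping by the family number in the gene name gave 4 families of at least 2 genes, against 6 groups by shared seeds. No paired analysis was possible because the columns per library carry no replicate number or genotype. The planned genotype comparison and its alternatives (pseudocounts, filter, scaling, edgeR and DESeq2, replicate block, leaving out each library) were not run for the same reason. Depth limits any gene under 0.578 normalized reads, the upper limit on the expected level of a gene with 0 reads.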
